A study of Mus musculus with 6 samples.

Results

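The subject here is a set of 10 protein-coding genes of mitochondrial DNA: COX1, COX2, COX3, ATP6, ATP8, ND1, ND2, ND4, ND6 and CYTB. They were taken by name, without the usual mt- prefix, from a deposited table of 17744 genes, and all 10 were found. The set was selected on measured values: mitochondrially encoded genes had already been seen to differ between the control and ultrasound libraries analysed here. Their levels across these libraries are therefore a description, with no test. The samples are mouse splenic CD8 T cells, gated on CD45, CD3 and CD8a and profiled by bulk RNA-seq. There were 3 control libraries, labelled wild type (wt), and 3 libraries from animals given focused ultrasound (labelled fus irradiation in both the genotype and the treatment field), which delivers acoustic energy to a chosen spot in the body. Strain, age, dose, the time between treatment and sorting, and the number of animals behind each library are not given in the sources used here. Values therefore describe the spread between these 6 libraries, which may be technical.

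Mitochondria keep a small circular genome that encodes core subunits of the respiratory chain and of ATP synthase. The nuclear genome encodes the other subunits and the proteins that copy, transcribe and translate mitochondrial DNA. Most of its genes are transcribed as 1 long precursor that is cut at the tRNAs between them, whereas ND6 is encoded on the opposite, light strand. The abundance of each mature RNA then depends on processing and decay as well as on transcription. In T cells oxidative phosphorylation is best known for sustaining resting and memory cells, and activation changes how much the cells rely on it.

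The 6 libraries divided only in part by label, as ultrasound 1 lay nearer to the controls than to ultrasound 2 and ultrasound 3. Reads recovered from the deposited values numbered 35024080 to 38113103 per library. Over the 10655 genes tested, 2 control libraries differed by a median of 0.0977 to 0.131 on the log2(FPKM + 1) scale (FPKM, fragments per kilobase of gene, scaled to library depth), and ultrasound 1 differed from controls by 0.153 to 0.175. Ultrasound 2 and ultrasound 3 differed from each other by 0.105, and from the other 4 libraries by 0.270 to 0.335. Every ultrasound library, ultrasound 1 included, was above every control for 25.9% of the genes tested and below every control for 8.96%. Markers of CD8 T cells were present throughout, with a sum over 10 genes of 2735 to 2889 FPKM in controls. The sum was 2370, 3005 and 2785 FPKM in ultrasound 1, 2 and 3. In ultrasound 1 each of these markers lay below every control, where 23.1% of all genes tested did. In all 3 ultrasound libraries 2 of the 10 did so, where 8.96% of all genes tested did. The comparisons below are therefore also given for ultrasound 1 alone against the controls, that is, without ultrasound 2 and ultrasound 3.

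Nuclear copies of mitochondrial DNA bear on how these genes are counted. The mouse nuclear genome holds pieces of mitochondrial DNA, and a read that matches both places cannot be assigned by its sequence alone. In the GENCODE M21 annotation of GRCm38 (mm10), pseudogenes on the minus strand of chromosome 1 copy COX2 (chrM:7013-7696), COX3 (chrM:8607-9390) and ATP6 (chrM:7927-8607) over 99.6%, 99.9% and 99.6% of their length, with 0 differences. They are Gm28661 (chr1:24614885-24615565), Gm28437 (chr1:24613189-24613971) and Gm10925 (chr1:24613974-24614651). The first 60 bases of 2 of these pairs, from GENCODE M21 transcripts, are shown to make the identity visible.
COX2: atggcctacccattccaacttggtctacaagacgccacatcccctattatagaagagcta
Gm28661: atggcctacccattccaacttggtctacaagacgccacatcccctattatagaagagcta
ATP6: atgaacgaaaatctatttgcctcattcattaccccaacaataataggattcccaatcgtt
Gm10925: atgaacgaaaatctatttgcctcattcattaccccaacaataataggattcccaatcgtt
COX1 (chrM:5328-6872) is copied only at its 3′ end, by Gm29216 (chr1:24615706-24616197), and ND4 (chrM:10167-11544) only over its first 876 bases, or 63.6% of the gene, by Gm28439 (chr1:24611535-24612410). The start of the COX1 copy is shown with differing bases in capitals. Counted from 1 at the first base of COX1, the differences are T1056A, C1057T, A1059G, A1060G, C1062A and A1066T, and no others lie in the 492 bases compared.
COX1: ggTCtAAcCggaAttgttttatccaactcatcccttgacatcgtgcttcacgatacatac
Gm29216: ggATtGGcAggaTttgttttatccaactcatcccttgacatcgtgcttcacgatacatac
No annotated pseudogene of this stretch gave more than a short match to ATP8, ND1, ND2, ND6 or CYTB. Short matches were not counted as copies. One of them is the last 43 bases of ATP8, which it shares with ATP6 and so with Gm10925. ATP8 sits between COX2 and ATP6, where the nuclear stretch between Gm28661 and Gm10925 carries no annotated gene, so a copy of ATP8 was not looked for in genomic sequence. Its 204 bases are printed because ATP8 is the shortest of the 10 and because its last 43 bases, in capitals, are also the first 43 of ATP6.
ATP8: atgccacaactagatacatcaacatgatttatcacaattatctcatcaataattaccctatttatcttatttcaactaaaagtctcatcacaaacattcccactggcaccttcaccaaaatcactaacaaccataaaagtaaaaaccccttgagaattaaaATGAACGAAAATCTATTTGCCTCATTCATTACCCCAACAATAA
How reads that match more than 1 place were treated is not given in the sources used here. Values of COX2, COX3, ATP6 and ATP8, and in part those of COX1 and ND4, are uncertain as levels for this reason, and the part it has in the differences below was not tested.

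Together the 10 genes took 1.83%, 1.85% and 2.44% of recovered reads in control 1, 2 and 3. They took 1.94% in ultrasound 1, 0.853% in ultrasound 2 and 0.841% in ultrasound 3. Ultrasound 1 lay inside the range of the controls, while ultrasound 2 and ultrasound 3 lay below the lowest control. The Wilson 95% interval, which covers counting error only, was 0.850% to 0.856% in ultrasound 2 and 0.838% to 0.844% in ultrasound 3, so these 2 libraries differed from each other by more than counting error, although by little. The mean share was 2.04 ± 0.346% in controls and 1.21 ± 0.632% in ultrasound libraries (SD, n = 3 each), and the wide SD of the ultrasound group comes from ultrasound 1 standing with the controls. In bulk RNA a smaller number of mitochondrion-rich cells and less mitochondrial RNA per cell cannot be told apart.

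**Figure D1:**
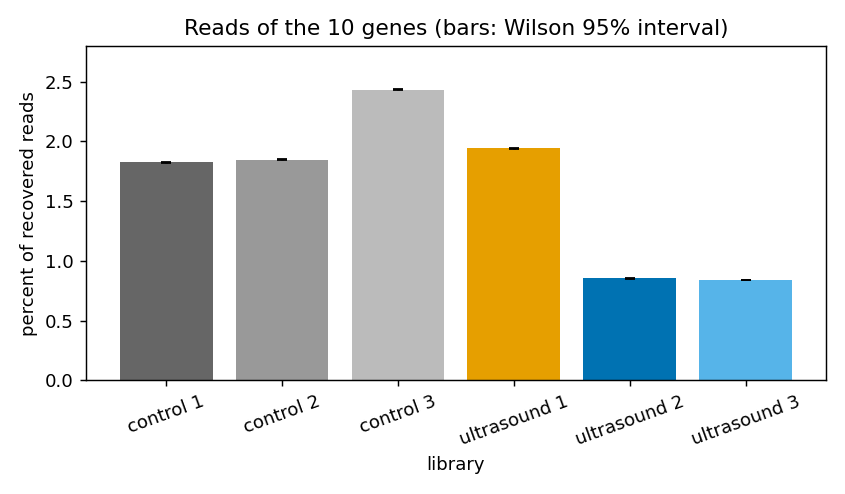
Share of recovered reads, in percent, that fell on the 10 mitochondrially encoded genes in each of the 6 libraries, with Wilson 95% intervals as error bars. Controls and ultrasound 1 lie between 1.83% and 2.44%, and ultrasound 2 and 3 at 0.853% and 0.841%.

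ND1, ND2, ND4 and ND6 encode subunits of complex I, the NADH dehydrogenase that starts the electron transport chain. ND1 (NCBI Gene 17716) had 2517, 2488 and 3161 FPKM in control 1, 2 and 3 and 2830, 928 and 823 in ultrasound 1, 2 and 3. ND2 (17717), a membrane-arm subunit, had 1446, 1460 and 1884 FPKM in controls and 1381, 447 and 379 in ultrasound libraries. ND2 was the 1 gene of the 10 whose 3 ultrasound values all lay below all 3 controls, and in ultrasound 1 it did so narrowly. ND4 (17719), also in the membrane arm, had 713, 883 and 1027 FPKM in controls and 902, 496 and 510 in ultrasound libraries. ND4 was the least reduced of the 10 in ultrasound 2 and ultrasound 3, at 56.8% and 58.4% of the control mean.

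ND6 (17722), the complex I subunit at chrM:13552-14070 on the light strand, behaved unlike the other complex I genes. It had 28.6, 15.95 and 25.5 FPKM in controls, from 290 to 524 reads, and 19.2 FPKM in ultrasound 1 from 351 reads. In ultrasound 2 it had 0.257 FPKM from 5 reads and in ultrasound 3 0.202 FPKM from 4 reads. Against the pooled controls this was 1.10% in ultrasound 2 (exact 95% counting interval 0.356% to 2.57%) and 0.865% in ultrasound 3 (0.235% to 2.22%), far under the 23.8% or more at which ND1, ND2 and ND4 stood. ND6 overlaps the end of ND5 by 14 bases on the opposite strand. Whether the counting used strand is not given in the sources used here, so sense and antisense reads over ND6 cannot be told apart.

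CYTB (17711) encodes cytochrome b, the only mitochondrially encoded subunit of complex III, which passes electrons to cytochrome c. It had 2636, 2607 and 3420 FPKM in controls and 2836, 1475 and 1448 in ultrasound libraries. Ultrasound 1 lay among the controls, and ultrasound 2 and ultrasound 3 stood at 51.1% and 50.1% of the control mean. The difference between these 2 was small beside their distance from the other 4 libraries.

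COX1, COX2 and COX3 form the catalytic core of complex IV, cytochrome c oxidase, which hands electrons to oxygen. COX1 (17708) was the most abundant of the 10 genes in every library, with 6550, 6523 and 8851 FPKM in controls and 6746, 3086 and 3130 in ultrasound libraries. In ultrasound 2 and ultrasound 3 it stood at 42.2% and 42.8% of the control mean, between ND1 and CYTB. COX2 (17709), which receives the electrons from cytochrome c, had 169, 163 and 261 FPKM in controls and 245, 31.1 and 20.1 in ultrasound libraries. COX3 (17710) had 81.2, 124 and 130 FPKM in controls and 139, 10.8 and 8.23 in ultrasound libraries. Ultrasound 1 was within the controls for COX2 and above all of them for COX3. The other 2 ultrasound libraries stood at 15.7% and 10.2% of the control mean for COX2 and at 9.62% and 7.37% for COX3, a wider gap than for COX1 of the same complex.

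ATP6 and ATP8 encode membrane subunits of ATP synthase, complex V, through which protons flow back. ATP6 (17705) had 65.2, 88.9 and 100.3 FPKM in controls, and 110, 7.95 and 10.9 in ultrasound libraries. It was above every control in ultrasound 1 and at 9.38% and 12.9% of the control mean in ultrasound 2 and ultrasound 3. ATP8 (17706) had 31.8, 22.5 and 26.7 FPKM in controls and 26.7 in ultrasound 1, from 161 to 229 reads in each of these 4 libraries. It had 1 read in ultrasound 2, or 0.484% of the pooled controls with an exact 95% counting interval of 0.0122% to 2.71%, and 0 reads in ultrasound 3. The exact 95% counting interval in ultrasound 3 reached up to 1.76% of the pooled controls, so ATP8 was at least 56.8-fold lower there. Taking the limit that a count of 0 allows as 3 reads in that library would give 70.0-fold, without counting error in the controls.

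**Figure D2:**
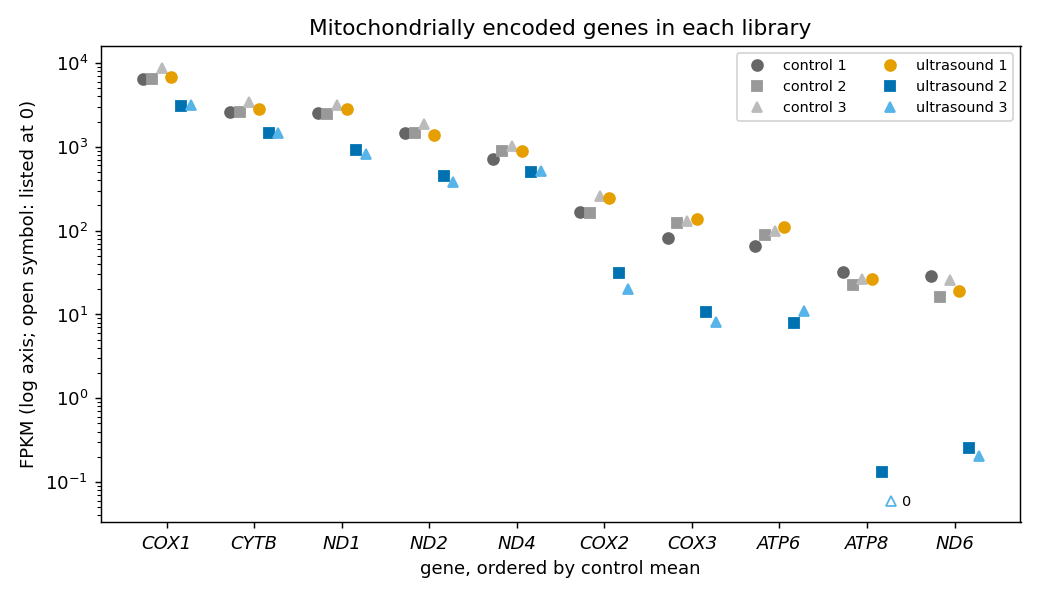
FPKM on a log axis for the 10 genes, ordered by control mean, with 1 symbol per library and an open symbol where a gene is listed at 0. Ultrasound 1 lies within the range of the controls except for ND2, just below it, and COX3 and ATP6, just above it, while ultrasound 2 and 3 lie below every control for all 10 genes.

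The order of the levels, compared per length as FPKM, was the same in the 3 controls and in ultrasound 1: COX1, CYTB, ND1, ND2, ND4, COX2, COX3, ATP6, ATP8 and ND6. Some neighbours in this order had means that lay closer than the SD between control libraries: CYTB at 2888 ± 461 and ND1 at 2722 ± 380 FPKM, and ATP8 at 27.0 ± 4.64 and ND6 at 23.3 ± 6.59 FPKM (SD, n = 3). COX3 at 112 ± 26.7 and ATP6 at 84.8 ± 17.9 FPKM (SD, n = 3) differed by about as much as the SD of COX3. Within each control library, however, the first gene of each pair was the higher one. In ultrasound 2 and ultrasound 3 ND4 stood above ND2, and in ultrasound 3 ATP6 also stood above COX3. ND6 was listed above ATP8 in both, but from 5 reads against 1 and 4 reads against 0, too few to order the 2 genes. COX2, COX3, ATP6, ATP8 and ND6 together took 1.34% to 1.89% of the reads of the 10 genes in controls and ultrasound 1, against 0.414% in ultrasound 2 and 0.330% in ultrasound 3.

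Set against COX1 in the same library, which removes a shared change in mitochondrial RNA, the genes did not keep constant proportions. CYTB was 38.6% to 40.3% of COX1 in controls, 42.0% in ultrasound 1, 47.8% in ultrasound 2 and 46.3% in ultrasound 3. ND4 was 10.9% to 13.5% of COX1 in controls, 13.4% in ultrasound 1 and 16.1% and 16.3% in ultrasound 2 and ultrasound 3. Both were higher relative to COX1 in ultrasound 2 and ultrasound 3 than in the other 4 libraries. ND2 went the other way, at 21.3% to 22.4% of COX1 in controls, 20.5% in ultrasound 1 and 14.5% and 12.1% in ultrasound 2 and ultrasound 3. COX2 was 2.51% to 2.95% of COX1 in controls, 3.64% in ultrasound 1 and 1.01% and 0.642% in ultrasound 2 and ultrasound 3. Relative to COX1, ND2 and COX2 were therefore lower in those 2 libraries, with no overlap with the other 4.

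**Figure D3:**
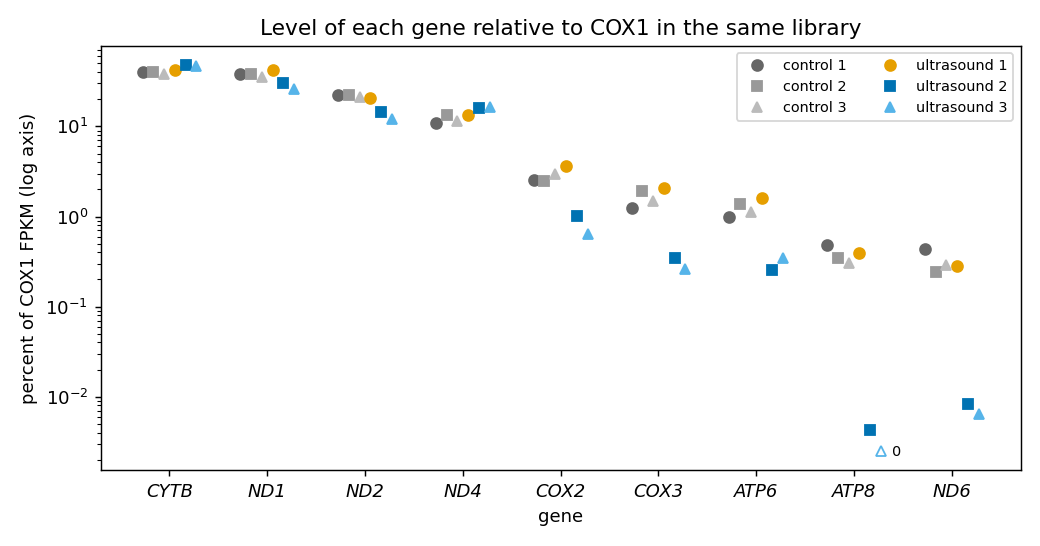
FPKM of 9 genes as a percentage of COX1 in the same library, on a log axis, with an open symbol for a value of 0. In ultrasound 2 and 3, CYTB and ND4 are above the other 4 libraries, and ND1, ND2, COX2, COX3, ATP6, ATP8 and ND6 are below them.

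Ultrasound 2 and ultrasound 3 also differed from each other for single genes by more than counting error. The ratio of ultrasound 3 to ultrasound 2, from reads scaled to library totals, was 0.646 for COX2 (exact 95% interval 0.577 to 0.722) and 1.37 for ATP6 (1.14 to 1.65). For COX1 it was 1.01 (1.01 to 1.02) and for CYTB 0.982 (0.971 to 0.993). For COX3 the ratio was 0.766 (0.646 to 0.907). COX2 and COX3 were thus lower and ATP6 higher in ultrasound 3 than in ultrasound 2, although the 3 genes are near neighbours. These intervals cover counting error only, as reads carry no molecular identifiers.

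Position on the genome and sequence features were not used to choose the genes. Along mitochondrial DNA, COX2, ATP8, ATP6 and COX3 follow one another from chrM:7013 to chrM:9390, between COX1 and ND4. These 4 neighbours stood at 15.7% of the control mean or less in both ultrasound 2 and ultrasound 3, whereas ND1 and ND2 before them, COX1, ND4 and CYTB stood at 23.8% to 58.4%. COX2, COX3 and ATP6 are the 3 genes with a nuclear copy over nearly their whole length, and they ranged from 7.37% to 15.7% of the control mean in these 2 libraries. COX1 and ND4, copied in part, ranged from 42.2% to 58.4%. Of the 5 genes with no annotated copy beyond short matches, ND1, ND2 and CYTB lay between 23.8% and 51.1%. ATP8 and ND6 were the lowest of the 10, at 1.10% or less. The lowest values in ultrasound 2 and ultrasound 3 were thus those of the 3 genes with a nearly complete annotated copy and of ATP8 and ND6. For ATP8 the lack of a copy concerns the annotation only, as the unannotated stretch between Gm28661 and Gm10925 was not searched. Its last 43 bases do lie within Gm10925. The part of nuclear copies in these values was not tested. GC content was 31.9% in ATP8, 34.1% in ND6 and 35.6% to 39.9% in the other 8 genes. ATP8, ND6, ATP6, COX2 and COX3 were also the shortest of the 10, at 204 to 784 bases against 957 to 1545. In controls they were the least abundant as well, with means of 23.35 to 197.6 FPKM against 874.1 to 7308. The part of length, control level or GC content in these values was not tested.

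The other protein genes of mitochondrial DNA in the table are ND3, ND4L and ND5, which are not among the 10. ND5 (17721) had 1201, 1213 and 1462 FPKM in controls and 1348, 556 and 525 in ultrasound libraries, near COX1 in its proportions. ND3 (17718), copied by Gm28438 over 98.3% of its length, had 17.7, 15.3 and 19.5 FPKM in controls and 11.6, 1.69 and 0.829 in ultrasound libraries. ND4L (17720), copied by Gm10222 over 99.0%, had 11.9, 15.9 and 22.6 FPKM in controls and 24.6, 2.16 and 6.89 in ultrasound libraries. Both lie between COX3 and ND4. In ultrasound 2 and ultrasound 3, ND3 was as low as COX2, ATP6 and COX3. It stood there at 9.63% and 4.73% of the control mean, from 22 and 11 reads. In ultrasound 1 ND3 was already below every control, at 66.2% of the control mean, where COX2, COX3 and ATP6 stood at 124% to 129%. ND4L was at 12.8% in ultrasound 2 but 41.01% in ultrasound 3, from 24 and 78 reads.

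**Figure D4:**
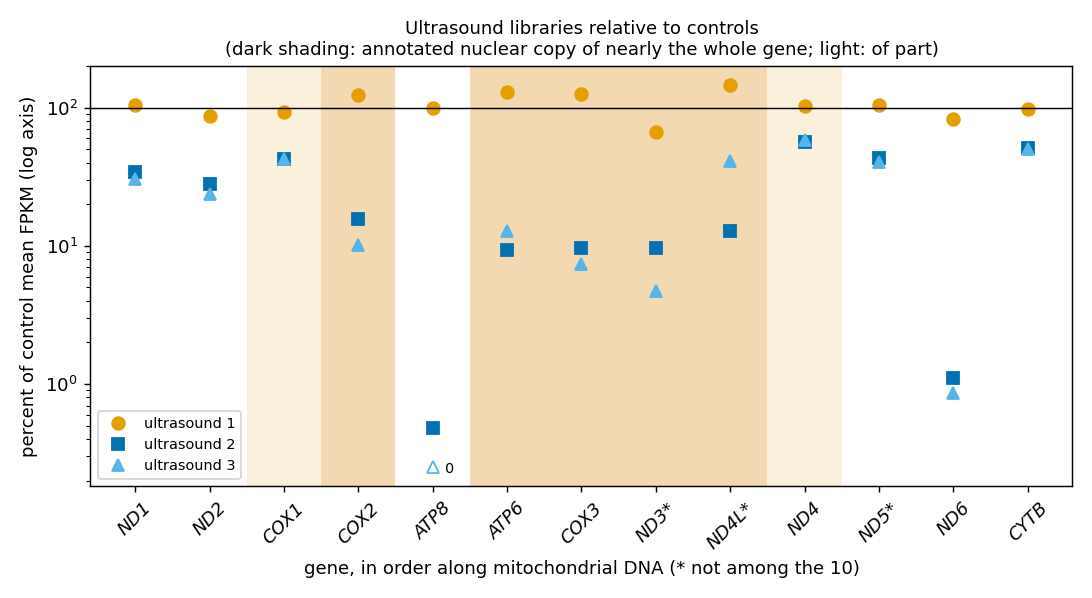
Level of each mitochondrially encoded gene in the 3 ultrasound libraries as a percentage of the control mean, on a log axis, with genes in their order on mitochondrial DNA and shading for annotated nuclear copies. Ultrasound 1 stays between 66.2% and 146%, and ultrasound 2 and 3 are at 15.7% or less for COX2, ATP8, ATP6, COX3, ND3 and ND6, with ND4L at 12.8% in ultrasound 2 and 41.01% in ultrasound 3.

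The comparison of the 3 ultrasound with the 3 control libraries was fitted with limma on log2(FPKM + 1) over all 10655 genes, with Benjamini-Hochberg adjustment. Since the contrast itself led to these genes, the following counts describe them and support nothing. The median difference over the 10 genes was -1.59 on the log2(FPKM + 1) scale, ultrasound minus control, against 0.09 over all genes tested. It ranged from -0.50 for ND4 to -3.14 for ATP8, and all 10 were below 0. Of the 10, 0 had an adjusted p under 0.05, where 8.11% of all genes tested did, 1.56% lower and 6.55% higher in ultrasound libraries. Before adjustment, 5 of the 10 had a p under 0.05, all of them lower, against 31.2% of all genes in either direction and 8.57% in the lower one. With voom on recovered reads 0 of 10 passed an adjusted p of 0.05, against 7.88% of all genes, and 8 of 10 had an unadjusted p under 0.05 in the lower direction, against 9.24%. The authors' deposited table gives a q under 0.05 for 0 of the 10, against 4.98% of its genes in the lower direction and 12.3% in either, and a p under 0.05 for 5, against 11.8% in the lower direction. ATP8 and ND6 passed the filter of FPKM of at least 1 in 3 libraries through the controls and ultrasound 1 only.

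Leaving out libraries changed this picture in both directions. Without ultrasound 1 the median over the 10 genes was -2.42. In that fit 10 of 10 had a limma adjusted p under 0.05 in the lower direction, where 53.6% of all genes passed, 19.9% in that direction. This count supports nothing, as ultrasound 1 had been seen to stand with the controls for these genes. ATP8 and ND6 passed the filter of that fit through the controls only. With ultrasound 1 alone set against the controls the median was 0.03, 0 of 10 passed, 0 had an unadjusted p under 0.05, and 0.68% of all genes passed, 0.311% in the lower direction. In that fit the lone library is assumed to vary like the controls. Ultrasound 1 was below every control for 1 of the 10 genes, against 23.1% of all genes tested, and above every control for 2, against 44.6%. Ultrasound 2 was below every control for 10 of 10, against 29.6%, and above for 0, against 53.2%. Ultrasound 3 was below every control for 10 of 10, against 34.5%, and above for 0, against 49.6%. Both of these libraries were below every control for 10 of 10 and for 27.4% of all genes. All ultrasound libraries were below all controls for 1 of 10 genes and for 8.96% of genes tested.

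Nuclear genes of the same complexes stayed near the level of all genes in their median. Of 79 nuclear genes of oxidative phosphorylation, 0 had a limma adjusted p under 0.05, 13 had an unadjusted p under 0.05 with a higher and 6 with a lower level in ultrasound libraries, and voom called 0. Over all genes tested, 22.6% and 8.57% had such an unadjusted p. Their median difference was 0.11, close to the 0.09 of all genes tested, with 54 genes above and 25 below 0. In ultrasound 1, 2 and 3 the median relative to the control mean was 0.01, 0.19 and 0.16, where the 10 mitochondrial genes had 0.03, -2.21 and -2.44. The authors' deposited table gives a q under 0.05 for 6 of the 79, all lower, against 7.73% lower and 8.64% higher among all genes tested here.

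**Figure D5:**
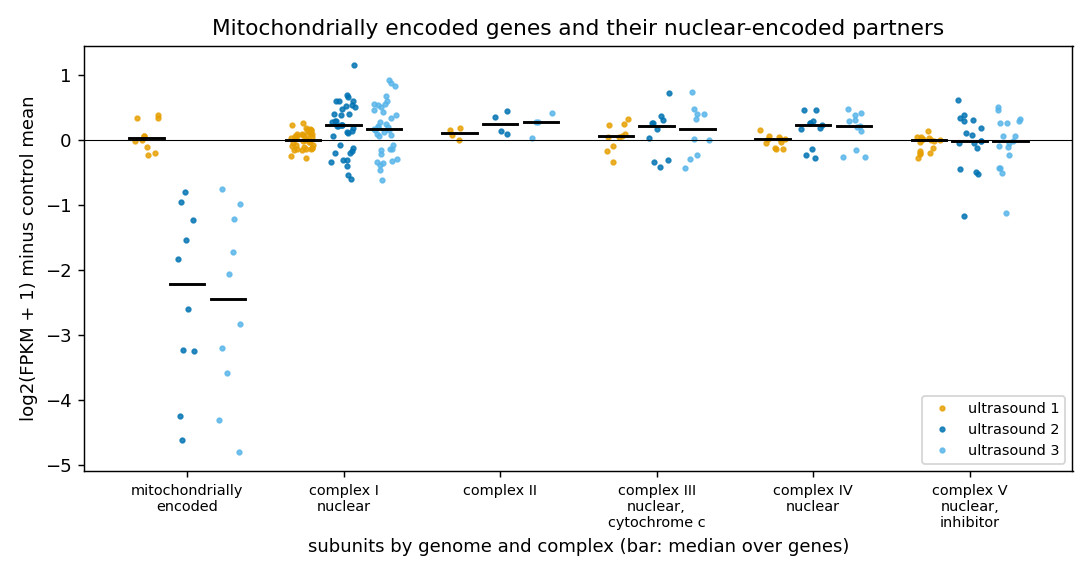
Difference of each gene from its control mean on the log2(FPKM + 1) scale in ultrasound 1, 2 and 3, for the 10 mitochondrially encoded genes and for nuclear-encoded subunits by complex, with black bars at the median. The mitochondrial genes lie at -0.76 or lower in ultrasound 2 and 3, while the nuclear medians stay between -0.02 and 0.28.

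By complex, the nuclear subunits that moved most were as follows. In complex I, with 37 nuclear genes and a median of 0.12, the extremes were Ndufa12, an accessory subunit (0.75 with standard error 0.26, limma adjusted p 0.110), and Ndufb1 (-0.43 with standard error 0.15, limma adjusted p 0.110). Complex II, succinate dehydrogenase, has no mitochondrially encoded subunit, and its 4 genes ranged from 0.04 for Sdha to 0.29 for Sdhc. The direction of Sdha flipped with median-of-ratios and upper-quartile scaling. In complex III, where CYTB is the mitochondrial partner, Uqcrq stood at 0.57 and Uqcrh at -0.29. Complex IV genes, partners of COX1 to COX3, ranged from -0.22 for Cox7a2 to 0.30 for Cox8a. In complex V, partners of ATP6 and ATP8, Atp5g2 stood at 0.36 and Atp5k at -0.85. Atp5k, a small subunit of the membrane part, had 107, 72.1 and 81.4 FPKM in controls and 70.7, 37.4 and 39.0 in ultrasound libraries (limma adjusted p 0.0932), below every control in all 3. With ultrasound 1 alone against the controls, Ndufa12 stood at 0.18, Ndufb1 at -0.14, Sdhc at 0.15, Uqcrq at 0.25, Uqcrh at -0.33, Cox8a at 0.06, Cox7a2 at -0.13 and Atp5k at -0.27. Uqcrh was thus as low in ultrasound 1 as in the whole group, while the others were nearer to 0. Sdha stood at 0.0028 and Atp5g2 at -0.0303, the latter turned in direction.

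Without ultrasound 1, 46 of the 79 nuclear genes passed, 34 higher and 12 lower, where 53.6% of all genes passed, 33.8% higher and 19.9% lower. Without ultrasound 2 and ultrasound 3, 0 of the 79 passed. Of the 79, 21 lay below and 46 above every control in ultrasound 2, where 29.6% and 53.2% of all genes did. In ultrasound 3, 23 lay below and 43 above, where 34.5% and 49.6% of all genes did. In ultrasound 1, 18 lay below and 12 above, where 23.1% and 44.6% of all genes did.

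Genes that maintain, express, assemble or clear mitochondria were counted from the same fit. Of 115 tested, 1 passed a limma adjusted p of 0.05, against 8.11% of all genes. It was Cox20, an assembly factor that helps mature COX2, with 22.6, 22.6 and 24.4 FPKM in controls and 18.4, 14.2 and 14.2 in ultrasound libraries. Cox20 fell by 0.55 on the log2(FPKM + 1) scale, with standard error 0.12 and limma adjusted p 0.0418, and was below every control in 3 of 3 ultrasound libraries. It did not pass without control 1, control 2, control 3, ultrasound 2 or ultrasound 3, nor with ultrasound 1 alone against the controls, nor when no filter on low values was used (limma adjusted p 0.0744), nor with the replicate number as a block (limma adjusted p 0.0997).

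Among genes of mitochondrial DNA maintenance and transcription, 0 of 15 passed, with a median of 0.05. Polg2, the accessory subunit of the mitochondrial DNA polymerase, stood at -0.43 (limma adjusted p 0.0806) and Mterf4, of the mitochondrial transcription termination factor family, at 0.42 (limma adjusted p 0.158). Among genes of mitochondrial RNA processing, stability and decay, 0 of 20 passed, with a median of -0.03. Pnpt1, the mitochondrial polynucleotide phosphorylase, had 16.3, 15.9 and 16.03 FPKM in controls and 15.9, 10.2 and 9.99 in ultrasound libraries, with ultrasound 1 next to the controls (limma adjusted p 0.152). Fastk stood at 0.36. With ultrasound 1 alone against the controls, Polg2 stood at -0.23, Mterf4 at 0.12, Pnpt1 at -0.0182 and Fastk at 0.13.

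Translation factors gave 0 of 12, with Oxa1l, which inserts mitochondrially made proteins into the inner membrane, at 0.46 and the ribosome-associated Ptcd3 at -0.36. Oxa1l had 25.1, 25.7 and 25.8 FPKM in controls, 24.6 in ultrasound 1 and 41.9 and 43.1 in ultrasound 2 and ultrasound 3. Genes of mitochondrial mass and biogenesis gave 0 of 21, with a median of 0.06, from -0.38 for the coactivator Ppargc1b to 0.38 for Vdac3, a channel of the outer membrane. Mitophagy genes gave 0 of 10, from -0.07 for Fundc1 to 0.63 for Bnip3 (limma adjusted p 0.0507). The median of the 115 genes was 0.07, and in ultrasound 1, 2 and 3 it was 0.04, 0.07 and 0.04 relative to the control mean. With ultrasound 1 alone, Bnip3 stood at 0.71 and Vdac3 at 0.22, while Ptcd3 stood at -0.14, Ppargc1b at -0.13, Fundc1 at -0.0396 and Oxa1l at -0.0501, the last turned in direction.

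The 10 genes followed one another closely across the 6 libraries. Over their 45 pairs, Pearson correlations of log2(FPKM + 1) ran from 0.901 for ND4 with ND6 to 0.998 for COX1 with CYTB, a description over 6 libraries that mostly restates the distance of ultrasound 2 and ultrasound 3. The 5 other genes most like their mean profile over 6 libraries were ND5 (Pearson correlation 0.9995), Tapt1 (0.998), Zfp326 (0.998), Taf13 (0.997) and Xlr4a (0.996). Zfp326, for example, had 5.97, 6.24 and 6.60 FPKM in controls and 6.24, 3.26 and 3.19 in ultrasound libraries. The 3 most opposite were Pigyl (-0.9996), Dynlrb1 (-0.9995) and Acot7 (-0.998). A correlation above 0.95 was reached by 5.13% of 10645 other genes and one below -0.95 by 6.38%.

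Markers of other cell types differed between the libraries, and some divided them as the 10 genes did. Erythroid markers, 8 genes led by the globins, summed to 83.4 to 133 FPKM in controls, 113 in ultrasound 1 and 55.4 and 59.6 in ultrasound 2 and ultrasound 3, with 1 of 8 markers below every control in all 3, where 8.96% of all genes tested were. B cell markers, 8 genes, summed to 230.2 to 356 FPKM in controls and 171, 894 and 781 in ultrasound libraries, so that ultrasound 2 and ultrasound 3 stood apart from the other 4. Macrophage and monocyte markers, 10 genes, summed to 369 to 810.4 FPKM in controls and 1915, 1961 and 3333 in ultrasound libraries. Neutrophil markers, 10 genes, summed to 184 to 567 FPKM in controls and 2278, 630.4 and 666 in ultrasound libraries. In each of these 2 myeloid lists, 8 of 10 markers had their 3 ultrasound values, ultrasound 1 included, above the highest control, where 25.9% of all genes tested did. NK cell markers, 7 genes, summed to 64.8 to 72.4 FPKM in controls and 54.1, 243 and 133 in ultrasound libraries. Most of the sum in ultrasound 2 and ultrasound 3 was Gzma, at 178 and 82.3 FPKM there, 18.9 in ultrasound 1 and 18.9 to 25.5 in controls. Of the 7, 2 lay above every control in all 3 ultrasound libraries, where 25.9% of all genes tested did. Eomes alone lay below every control in all 3, where 8.96% did. Platelet and megakaryocyte markers, 6 genes, summed to 1.053 to 2.77 FPKM in controls and 1.80 to 4.24 in ultrasound libraries, and CD4 T cell markers, 4 genes, to 68.9 to 101 and 99.6 to 133. No marker in these lists was listed at 0 in an ultrasound library. The part of these cells in the levels of the 10 genes was not tested.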

How the data were processed

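The authors' deposited table gives FPKM values per gene and library. It also holds a signal, normalized counts averaged over the series and by group, with a fold change ratio, its log2, a p-value and a q-value, per the file headers. HISAT2, HTSeq, DESeq2, R 3.2.0 and mm10 are named in the submitters' processing notes, with no role or order. The library kit's version differs between the labels' protocols and the design text. Reads per gene were recovered from the linear relation between FPKM and both group means. Of 46613 values between 0.5 and 300 reads, 100.0% lay within 0.05 of a whole number, and the recovered lengths of all 13 mitochondrial genes matched RefSeq (GRCm38.p6). On simulated data 100.0% of 106464 values over 17744 genes came back.

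The test was limma 3.58.1 (trend, robust, two-sided) in R 4.3.3 on log2(FPKM + 1), a scale that understates changes of low genes, for genes that reached an FPKM of 1 in 3 or more libraries. Simulated tables held 200 genes changed by fold 2. With a dispersion of 0.01 (10727 genes) 100% of them were found beside 30 false calls, and with 0.05 (10730 genes) 57.5% beside 9. Pseudogenes were aligned with Biopython 1.88. Figures used matplotlib 3.10.9, and the remaining steps scipy 1.17.1, pandas 2.3.3 and numpy 2.4.6 under Python 3.11.15.

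Groups and replicate numbers came from the sample titles. The genes and lists were chosen with earlier results of these data known. Named genes are the 10, the 3 other mitochondrial genes, in each list those that passed or otherwise its highest and lowest, and the 5 most and 3 least correlated genes. Alternatives covered scaling, the pseudocount, filters, the robust option, voom on recovered reads, a replicate block, each library left out, ultrasound 2 and 3 left out together, and the authors' own values. Every pair of libraries differed by more than counting noise (chi-square per gene at least 22.2).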

Additional observations from a re-analysis of the deposited data

How the results depend on the processing

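On the log2(FPKM + 1) scale the median difference of the 10 genes lay between -1.71 and -1.60 under the 2 scalings and library totals without the 10 genes. A filter of FPKM of at least 1 in all libraries gave -1.21, but over 8 genes, as ATP8 and ND6 were dropped. The block, the robust option and the absence of a filter leave the median of the 10 genes the same by construction. On their own scales it was -1.60 with a pseudocount of 0.1, -1.62 with voom and -1.11 in the authors' deposited log2 fold changes. Leaving out one library moved it from -2.42 (without ultrasound 1) to -1.07 (without ultrasound 3), and leaving out ultrasound 2 and ultrasound 3 together brought it to 0.0301. Their mean share of reads was lower by 0.824 percentage points in the ultrasound group (-0.82), from -1.19 to -0.62 with one library left out, -0.094 without ultrasound 2 and ultrasound 3, and -1.50 as a share of summed FPKM. COX2, COX3, ATP6, ND1 and ND4 stood above 0 without ultrasound 2 and ultrasound 3, at 0.34, 0.35, 0.39, 0.07 and 0.06, and all 10 were below 0 under each other alternative that tested them.

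Of all genes, 864 passed, 698 higher and 166 lower. Median-of-ratios scaling gave 468, 281 higher and 187 lower, and moved the median of all genes from 0.09 to -0.02. Upper-quartile scaling gave 431 higher and 192 lower. The authors' deposited values gave 2179 genes, and ultrasound 1 alone against the controls 70. No filter gave 0 genes (4216 before adjustment of p). Leaving out one library gave 0 to 5628 genes: 571 without control 1, 5628 without ultrasound 1 and 0 without control 2, control 3, ultrasound 2 or ultrasound 3, with 1945, 2137, 1971 and 1913 at an unadjusted p under 0.05.

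The count of 0 among 79 nuclear genes became 6 in the authors' deposited values and ranged from 0 to 46 with one library left out, 46 without ultrasound 1, where 53.6% of all genes passed. The count of 1 among 115 other mitochondrial genes was 2 with FPKM of at least 1 in all libraries, 2 without the robust option, 7 in the authors' deposited values (1 higher, 6 lower, beside 8.64% and 7.73% of all genes tested), 0 with no filter and 0 without ultrasound 2 and 3, and ranged from 0 to 52 with one library left out, 52 without ultrasound 1, beside the same 53.6%. Directions reversed for Sdha with median-of-ratios scaling (-0.0817), upper-quartile scaling (-0.0519) and the authors' deposited values (-0.0829), and without ultrasound 2 and 3 for Atp5g2 (-0.0303) and Oxa1l (-0.0501). The cause was not tested.

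For libraries that carry the same number, deviations from the group means had correlations of -0.0406, 0.0513 and 0.0578. These values cannot decide whether such libraries were paired. Deviations in the ultrasound group also carry the distance of ultrasound 2 and ultrasound 3 from the remaining ultrasound library, which could hide a shared effect. Fitting the replicate block left 0 genes past the threshold (3249 before adjustment of p), 0 of the 79 and 0 of the 115. Depth limits ATP8 and ND6, which rest on 5 reads or fewer in ultrasound 2 and ultrasound 3.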
